A study of Mus musculus with 2 samples.

Results

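The genes described here are 9 core genes of the Hedgehog pathway: the Gli transcription factors Gli1, Gli2 and Gli3, the receptor Ptch1, the antagonist Hhip, the transducer Smo, and the co-receptors Boc, Cdon and Gas1. They were taken by symbol from the 23950 gene symbols of the deposited tables. Each of the 9 has 1 entry in both tables. The set was chosen because, in these same libraries, Gli1 was higher and Hhip lower in the cKO. Their differences are therefore given as a description, with no test, and support nothing.

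Whole optic nerves, taken from mice of a mixed strain at postnatal day 12, were profiled by RNA-seq. The Hdac3 cKO group carries 2 floxed Hdac3 alleles and Olig1-cre (Hdac3f/f; Olig1-cre), and the control group carries 1 floxed and 1 wild-type allele and the same Cre (Hdac3f/+; Olig1-cre). Olig1-cre expresses Cre recombinase from the regulatory sequence of Olig1, a gene of oligodendrocyte lineage cells, so control nerves also hold Cre and 1 allele that can be recombined. HDAC3 is a histone deacetylase that works in corepressor complexes, and the series title names its part in the choice between oligodendrocyte and astrocyte fate. Each group has 1 library, so no difference below has a replicate check. How many animals went into a library is not stated in the labels.

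In the Hedgehog pathway, a secreted ligand binds Ptch1 together with a co-receptor, which releases Smo from inhibition at the primary cilium. Smo then turns the Gli factors, above all Gli2 and Gli3, towards activation and away from their processed repressor forms. Gli1, Ptch1 and Hhip are themselves widely used as transcriptional readouts of the pathway, since Gli factors activate them. Ptch1 and Hhip then hold the signal back as negative feedback. In the developing optic nerve, retinal ganglion cells whose axons run through the nerve are known as a source of Sonic hedgehog, and nerve astrocytes as cells that respond to it.

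Values are FPKM, that is, fragments relative to transcript length and to the total of the library, each with the deposited bounds of an interval around it. A difference is log2 of cKO FPKM plus 1 over control FPKM plus 1, which understates the change of low genes. The range printed after it pairs the opposite bounds of the deposited intervals and holds no variation between animals. A gene was counted higher or lower when the 2 values were at least 2-fold apart on that scale and their intervals were separate. By that rule 4.73% of 14154 tested genes were higher and 4.51% lower in the cKO library. The summed FPKM was 557861 in the cKO library and 441867 in the control library, and the median difference of all tested genes was 0.12 on the log2 scale. What 1 fragment is worth, read from the low values, was 3.03 times as large in the control library, so the control library was the shallower. The targeted gene Hdac3 was at 38.0 FPKM in the cKO library and 36.4 FPKM in the control library (log2 difference 0.06, range -0.09 to 0.19). Values summed over a whole gene do not show which exons were read, and they leave the genotype labels unchecked. Every direction below therefore refers to the library labelled Hdac3 cKO against the library labelled control.

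All 9 genes passed the minimum of 1 FPKM in at least 1 library. On the deposited scale 5 of them were higher in the cKO library (Gli1, Boc, Smo, Gas1 and Ptch1), 1 was lower (Hhip), and Gli2, Gli3 and Cdon met neither rule. The background of 4.73% higher and 4.51% lower stands beside these counts, and nothing is read from it, because the set was chosen on this contrast. The median difference of the 9 genes was 1.01 on the log2 scale, against 0.12 for all tested genes, and 8 of the 9 differences were above 0, as were 61.4% of those of all tested genes. The 5 higher calls depend on the scaling. After centring on the median of all tested genes, where 3.10% of tested genes were higher and 5.38% lower, they were Gli1 and Boc alone. After scaling to the same summed FPKM, where 1.54% were higher and 6.91% lower, Gli1 alone was left. Hhip was lower under both. The 2-fold threshold cuts through a close group. Ptch1, at a log2 difference of 1.01, lay just past it, and Gli2, at 0.82, lay just short of it.

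**Figure D1:**
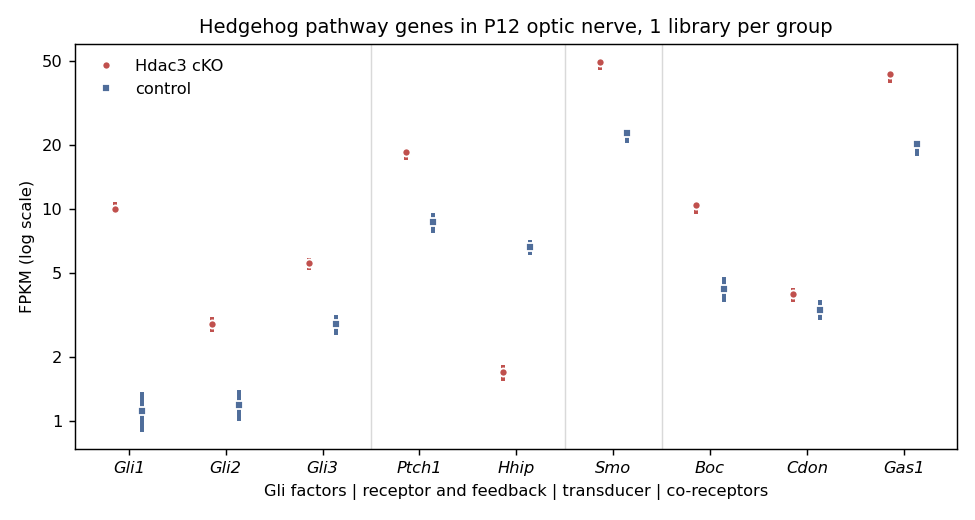
FPKM of each of the 9 Hedgehog genes (vertical axis, log scale) in the Hdac3 cKO library (circles, left) and the control library (squares, right), with bars for the deposited intervals. Gli1 is at 9.99 FPKM in the cKO library against 1.11 FPKM in the control library, Hhip is at 1.69 FPKM in the cKO library against 6.57 FPKM in the control library, and the other 7 genes have their cKO value above their control value.

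Gli1, the Gli factor that acts as an activator and whose own transcription follows the pathway, lies on mm9 chromosome 10 from 126766938 to 126778635. Its level was 9.99 FPKM in the cKO library, with an interval of 9.60 to 10.5, and 1.11 FPKM in the control library, with an interval of 0.901 to 1.33. The intervals were far apart, and the FPKM ratio was 8.996. The log2 difference was 2.38 (range 2.19 to 2.60), the 154th highest of the 14154 tested genes. Gli1 had the lowest level of the 9 genes in the control library and the fifth highest in the cKO library. Its control interval was also the widest relative to its size, at 19.2% on either side of its midpoint, against 4.43% in the cKO library. The Gli1 entry overlaps that of Arhgap9 at one end, and the labels do not say that strand was used in counting. Arhgap9 was at 2.09 FPKM in the cKO library and 1.17 FPKM in the control library.

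Gli2, which in mouse carries most of the activator function downstream of Smo, was at 2.87 FPKM in the cKO library (interval 2.67 to 3.02) and 1.19 FPKM in the control library (interval 1.02 to 1.36). The FPKM ratio was 2.41, and the difference on log2(FPKM + 1) was 0.82 (range 0.64 to 0.99). Gli2 thus missed 2-fold on the scale with a pseudocount of 1, and its difference was 1.20 with a pseudocount of 0.1. Gli3, whose processed form is the main repressor of the pathway, was at 5.55 FPKM in the cKO library (interval 5.27 to 5.73) and 2.85 FPKM in the control library (interval 2.60 to 3.09). Its difference was 0.77 (range 0.62 to 0.90). Intervals were separate between the libraries for both genes, and neither reached 2-fold on the scale used. RNA levels do not show how much Gli2 or Gli3 protein is in activator or repressor form.

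Ratios within a library do not depend on how the libraries are scaled. Gli1 over Gli3 was 1.80 in the cKO library and 0.390 in the control library, and Gli1 over Gli2 was 3.48 in the cKO library and 0.932 in the control library. For both ratios, the values that the interval bounds allow did not overlap between the libraries. Gli2 over Gli3 was 0.517 in the cKO library, with bounds of 0.465 to 0.573, and 0.419 in the control library, with bounds of 0.330 to 0.524, which overlap. Gli1 made up 54.3% of the summed Gli FPKM in the cKO library and 21.6% in the control library. Gli3 made up 30.2% in the cKO library and 55.3% in the control library. The Gli factor with the highest level was therefore Gli1 in the cKO library and Gli3 in the control library.

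**Figure D2:**
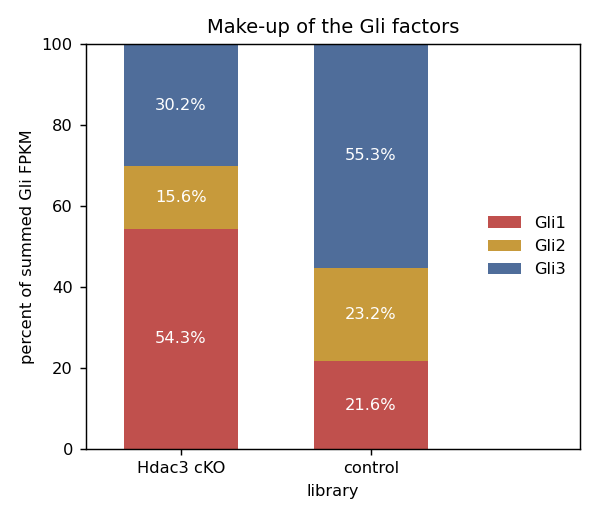
Share of each Gli factor in the summed FPKM of Gli1, Gli2 and Gli3 (vertical axis, percent) in the Hdac3 cKO library (left bar) and the control library (right bar). Gli1 takes 54.3% in the cKO library against 21.6% in the control library, and the shares do not change with scaling.

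Ptch1, the receptor that keeps Smo inactive until ligand binds, lies on mm9 chromosome 13 from 63612841 to 63666828. Its level was 18.5 FPKM in the cKO library (interval 17.3 to 18.6) and 8.70 FPKM in the control library (interval 7.87 to 9.30). The log2 difference was 1.01 (range 0.83 to 1.14), against 0.89 after centring on all tested genes and 0.69 with equal summed FPKM. Hhip, a membrane-bound protein that binds Hedgehog ligands and keeps them from Ptch1, lies on mm9 chromosome 8 from 82489750 to 82581907. Its level was 1.69 FPKM in the cKO library (interval 1.58 to 1.80) and 6.57 FPKM in the control library (interval 6.16 to 6.94). Its log2 difference was -1.49 (range -1.62 to -1.36), the 352nd lowest of the tested genes, against -1.61 after centring and -1.69 with equal summed FPKM. These feedback genes thus had differences of opposite sign on each of the 3 scales. With the median difference of meningeal fibroblast markers subtracted, both lay below 0, Ptch1 at -0.28 and Hhip at -2.79. Within a library, Hhip over Ptch1 was 0.0912 in the cKO library and 0.755 in the control library. Hhip over Gli1 was 0.169 in the cKO library and 5.92 in the control library. In the order of levels, Hhip was the lowest of the 9 genes in the cKO library and the fourth highest in the control library.

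Smo, the membrane protein that carries the signal towards the Gli factors, had the highest level of the 9 genes in both libraries. It was at 49.0 FPKM in the cKO library and 22.8 FPKM in the control library, and its log2 difference was 1.07 (range 0.95 to 1.16). The cKO value lies above its own deposited interval of 45.9 to 47.9 FPKM, while the control value lies inside its interval of 21.0 to 23.3. From the midpoints of the intervals Smo stayed past 2-fold, while Ptch1, at 0.98, fell short of it. After centring on all tested genes its difference was 0.95, just short of it.

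The co-receptors, which help ligand bind Ptch1, differed to unequal degrees. Gas1, a lipid-anchored co-receptor, was at 43.4 FPKM in the cKO library (interval 39.9 to 42.0, below the value) and 20.2 FPKM in the control library (interval 18.1 to 20.5). Its log2 difference was 1.07 (range 0.93 to 1.17). Boc, a transmembrane co-receptor of the immunoglobulin superfamily, was at 10.4 FPKM in the cKO library (interval 9.63 to 10.5) and 4.19 FPKM in the control library (interval 3.70 to 4.65), a log2 difference of 1.13 (range 0.91 to 1.29). Cdon, the close relative of Boc, was at 3.96 FPKM in the cKO library (interval 3.72 to 4.14) and 3.34 FPKM in the control library (interval 3.04 to 3.64). The Cdon difference of 0.19 (range 0.03 to 0.35) was the smallest of the 9 in size, against -0.07 with equal summed FPKM, so its sign depends on the scaling. Cdon over Boc was 0.382 in the cKO library and 0.797 in the control library, with bounds that do not overlap.

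The FPKM ratio of cKO over control was 1.95 for Gli3, 2.13 for Ptch1 and 2.14 for Smo. It was 2.15 for Gas1, 2.41 for Gli2 and 2.47 for Boc. Gli1, Hhip and Cdon lay outside the range of these 6 genes. The 6 were grouped after their ratios were seen, and the set was chosen on Gli1 and Hhip, so nothing is read from the grouping. Smo over Ptch1 was 2.64 in the cKO library and 2.63 in the control library, and Gas1 over Ptch1 was 2.34 in the cKO library and 2.32 in the control library. Boc over Ptch1 was 0.559 in the cKO library and 0.482 in the control library, with bounds that overlap. Smo, Gas1 and Ptch1 were the most abundant of the 9, in that same order, in both libraries. Below them, intervals overlapped between the neighbours Boc and Gli1 in the cKO library, and between Cdon and Gli3 and between Gli2 and Gli1 in the control library. The 9 genes together summed to 145 FPKM in the cKO library and 71.0 FPKM in the control library, with Smo and Gas1 the largest parts of both sums.

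**Figure D3:**
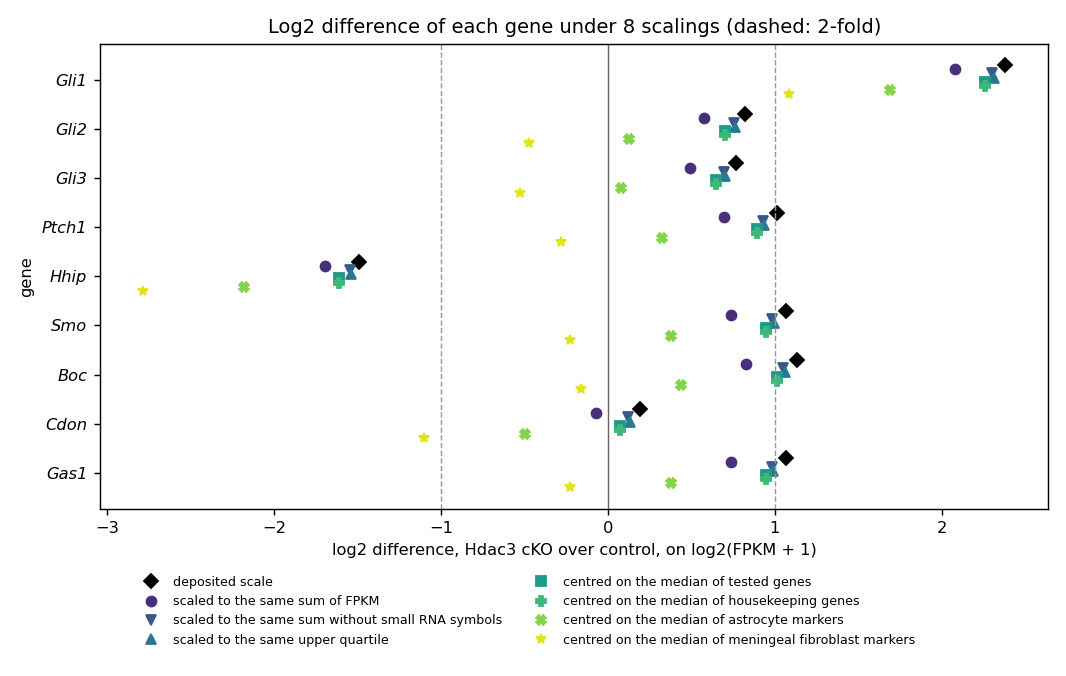
Log2 difference of each of the 9 genes (horizontal axis, Hdac3 cKO over control on log2(FPKM + 1)) under the deposited scale and 7 other scalings, one symbol each, with dashed lines at 2-fold. Gli1 is past 2-fold higher and Hhip past 2-fold lower under all 8, while Ptch1, Smo, Boc and Gas1 lie near 1 on the deposited scale and below 0 once centred on meningeal fibroblast markers.

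RefSeq start sites of build GRCm38.p6 were available here for 7 of the 9 genes, all but Gli1 and Boc. Upstream windows of 150 bases are shown for Ptch1 (chr13:63565736-63565885, minus strand) and Hhip (chr8:80058009-80058158, minus strand), the feedback genes of opposite sign on the deposited scale. Cdon (chr9:35451926-35452075, plus strand), the gene nearest to no difference on that scale, is shown as well. The windows read 5′ to 3′ and end at the base before the annotated start, with each CG dinucleotide in capitals.
Ptch1: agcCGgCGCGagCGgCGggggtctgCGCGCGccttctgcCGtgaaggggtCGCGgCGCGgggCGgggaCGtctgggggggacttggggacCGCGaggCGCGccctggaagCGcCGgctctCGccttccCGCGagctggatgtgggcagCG
Hhip: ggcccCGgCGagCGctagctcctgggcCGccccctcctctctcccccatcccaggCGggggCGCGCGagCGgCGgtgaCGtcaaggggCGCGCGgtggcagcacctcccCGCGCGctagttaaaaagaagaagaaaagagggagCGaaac
Cdon: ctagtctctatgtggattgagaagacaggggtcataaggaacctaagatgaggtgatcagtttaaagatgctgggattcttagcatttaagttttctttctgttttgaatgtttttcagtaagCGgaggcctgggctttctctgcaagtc

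In these windows CG occurs 25 times for Ptch1, 18 times for Hhip and 1 time for Cdon. Over the full 300 bases from 250 before to 50 after the start, CG occurs 47 times for Ptch1, 39 for Gli3, 30 for Hhip, 28 for Gli2, 17 each for Smo and Gas1, and 3 for Cdon. The median over 32851 RefSeq promoter windows of that length is 7, and 31.4% hold at least 17. At most the 3 of Cdon are in 31.4% of those windows. Ptch1 and Hhip both lie above the median and Cdon below it. Whether the CG count goes with the difference between the libraries was not tested. The Gli binding consensus GACCACCCA, and ACCACCCA, which lies inside it, were searched on both strands. GACCACCCA is in 0.253% and ACCACCCA in 1.48% of all windows, and neither is in any of the 7. That says only that these letters are not in these windows.

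Other genes of the pathway came from lists of 64 genes with an entry, 54 of which passed the minimum. Of these 54, 5 were higher and 2 lower in the cKO library, where 4.73% of all tested genes were higher and 4.51% lower. Of the 54 differences, 43 were above 0, as were 61.4% of those of all tested genes. The median was 0.40 on the log2 scale against 0.12 for all tested genes. Among ligands, only Desert hedgehog, Dhh, which Schwann cells are known to make, passed the minimum. Dhh was at 5.61 FPKM in the cKO library (interval 4.88 to 5.77) and 3.52 FPKM in the control library (interval 2.85 to 4.04), a log2 difference of 0.55 that did not meet the rule. Shh was at 0.0511 FPKM in the cKO library and 0.0882 FPKM in the control library, and Ihh was at 0.0511 FPKM in the cKO library and 0.0485 FPKM in the control library. Intervals of Shh and of Ihh overlapped between the libraries. As background, the cell bodies of retinal ganglion cells lie in the retina, outside the tissue sampled.

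In the list for ligand processing and release, 1 of 4 tested genes was higher and 0 lower, beside the background of 4.73% higher and 4.51% lower. That gene was Gpc3, a cell surface proteoglycan that binds Hedgehog ligands and limits their signal, at 114 FPKM in the cKO library and 45.9 FPKM in the control library (log2 difference 1.29). Both Gpc3 values lie above their own intervals. Scube1, a secreted relative of the ligand release factor Scube2, was at 2.33 FPKM in the cKO library and 0.750 FPKM in the control library and missed the rule (log2 difference 0.93). Of 20 genes between Smo and the Gli factors, 0 met the rule in either direction, and their median was 0.22. Sufu, which holds Gli proteins back, was at 11.1 FPKM in the cKO library and 7.04 FPKM in the control library (log2 difference 0.59), named here after its values were seen. The most abundant of the 20 were Prkar1a, a regulatory subunit of protein kinase A, at 129 FPKM in the cKO library and 112 FPKM in the control library, and Csnk1a1, a casein kinase, at 69.2 FPKM in the cKO library and 81.3 FPKM in the control library. Of 12 primary cilium genes, 0 met the rule, with a median of 0.35 and differences between -0.37 and 0.59. The largest difference in size among the cilium genes, 0.59, thus lay below those of Gli2 and Gli3, and whether these lists differ from the 9 genes was not tested.

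Of 17 tested genes listed as Gli targets outside the 9, 4 were higher and 2 lower, beside the background of 4.73% higher and 4.51% lower. In this list 15 differences were above 0, as were 61.4% of those of all tested genes, and the median log2 difference was 0.62. The 2 lower were Nkx2-2 and Nkx6-2, homeobox factors of the ventral neural tube that are also known in the oligodendrocyte lineage. Nkx2-2 was at 2.86 FPKM in the cKO library and 18.5 FPKM in the control library (log2 difference -2.33). Nkx6-2 was at 4.86 FPKM in the cKO library and 30.1 FPKM in the control library (log2 difference -2.41). Their relative Nkx6-1, named here after its values were seen, went the other way and did not meet the rule. It was at 14.2 FPKM in the cKO library and 7.08 FPKM in the control library (log2 difference 0.91). Those higher were Igfbp6, a secreted binding protein of insulin-like growth factors, at 141 FPKM in the cKO library and 51.3 FPKM in the control library (log2 difference 1.45), and Foxc2, Foxd1 and Sfrp1. The forkhead factors Foxc2 and Foxd1, known in mesenchymal cells, had log2 differences of 1.35 and 1.21, and Sfrp1, a secreted Wnt inhibitor, had one of 1.08. Ccnd1, the cyclin D1 gene, was the most abundant after Igfbp6, at 86.1 FPKM in the cKO library and 54.6 FPKM in the control library (log2 difference 0.65), and did not meet the rule.

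**Figure D4:**
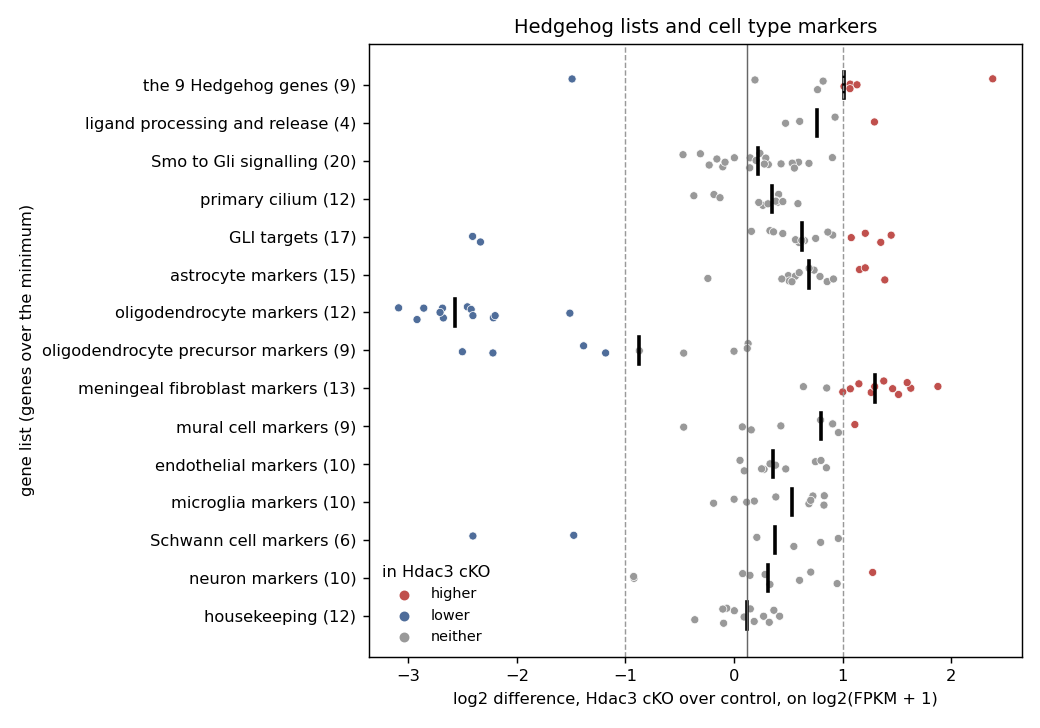
Log2 difference (horizontal axis, Hdac3 cKO over control) of each gene over the minimum FPKM in the 9-gene set, the wider Hedgehog lists, cell type markers and housekeeping genes, 1 point per gene, with black bars at list medians. The grey line marks the median of all tested genes, 0.12, and the median of the 9 genes, 1.01, lies between those of astrocyte markers, 0.69, and meningeal fibroblast markers, 1.29.

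Markers of the cell types in the nerve differed between the libraries beside the Hedgehog genes, and in whole tissue fewer cells of a type and less RNA per cell cannot be told apart. Over all tested genes 4.73% were higher and 4.51% lower. Of 13 meningeal fibroblast markers, 11 were higher in the cKO library and 0 lower. Their median log2 difference was 1.29, and their levels summed to 5745 FPKM in the cKO library and 2371 FPKM in the control library. Of 15 astrocyte markers, 3 were higher and 0 lower, the median was 0.69, and the sums were 3306 FPKM in the cKO library and 1914 FPKM in the control library. All 12 oligodendrocyte markers were lower, with a median of -2.57 and sums of 1829 FPKM in the cKO library and 12325 FPKM in the control library. Of 9 oligodendrocyte precursor markers, 4 were lower and 0 higher, and the median was -0.87. The sums were 220 FPKM in the cKO library and 441 FPKM in the control library. That list was split. Pdgfra, Ptprz1 and Matn4 had log2 differences of 0.13, 0.12 and -0.0009, and Cspg4 and C1ql1 of -0.46 and -0.87. The 4 lower were Gpr17, Neu4, Lhfpl3 and Pcdh15. Gpr17, at 37.2 FPKM in the cKO library and 215 FPKM in the control library, made up most of the gap between the sums. None of the markers in these 4 lists was listed at 0 in either library. Medians were 0.80 for 9 mural cell markers, 0.54 for 10 microglia markers, 0.38 for 6 Schwann cell markers, 0.36 for 10 endothelial markers and 0.31 for 10 neuron markers. In those lists 1 mural marker and 1 neuron marker were higher, and 2 Schwann cell markers were lower, among them Sox10, which the oligodendrocyte list also holds. The ligand Dhh is itself 1 of the 6 Schwann cell markers, and Cspg4 is in both the mural and the precursor lists.

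The differences of the Hedgehog genes were also taken relative to those markers. After centring on the astrocyte markers, Gli1 was at 1.69 and Hhip at -2.18 on the log2 scale, while Ptch1, Smo, Gas1 and Boc lay between 0.32 and 0.44 and Gli2 and Gli3 at 0.13 and 0.08. After centring on the meningeal fibroblast markers, Gli1 was at 1.09 and counted higher, as 0.304% of tested genes were. Hhip was at -2.79. On that scale Ptch1, Smo, Gas1 and Boc lay between -0.28 and -0.16, Gli3 and Gli2 at -0.53 and -0.47, and Cdon at -1.10, where it and Hhip were counted lower, as 64.2% of tested genes were. The Hhip difference of -1.49 lay between the medians of the precursor and the oligodendrocyte markers, and no marker list had a median as high as the Gli1 difference of 2.38. The set was chosen on Gli1 and Hhip, so nothing is read from their place beside these markers. The part of these cell types in the Hedgehog differences was not tested.

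Of the 18 nearest tested genes on the chromosome that do not overlap the 9 genes, 1 on either side of each, 1 was counted higher and 0 lower, near the background of 4.73% higher and 4.51% lower. Gli1 lies between Mars, with a log2 difference of -0.18, and R3hdm2, with one of 0.20, and Hhip between Anapc10, with one of 0.31, and Smarca5, with one of -0.51. The neighbour counted higher was Fancc, beside Ptch1, at 19.2 FPKM in the cKO library and 6.24 FPKM in the control library. These neighbours are named for their position.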

How the data were processed

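Optic nerve RNA of 1 Hdac3 cKO and 1 control library at postnatal day 12 was compared. Per the file headers, the authors deposited FPKM per gene with interval bounds and a status for each value. The submitters' processing notes name CASAVA, TopHat, Cufflinks and build mm9, with no versions named there. Of 24460 entries, the one with the highest summed FPKM was kept per symbol. Genes with status OK in both libraries and at least 1 FPKM in at least 1 were tested, with no p-value, because each group has 1 library. Locus starts were raised by 1 to count from 1. The value of 1 fragment was read from FPKM times length of genes with 1 GENCODE M21 transcript. The members and lists, and the rule for named genes (all members, ligands, genes counted higher or lower and the most abundant list genes), were chosen with earlier results of these data known. Marker genes and some list genes that the rule selects are given by their list, and 1 gene that it selects is not reported here. Calculations used Python 3.11.15 and pandas 2.3.3 and were tested on simulated data. Alternatives changed the pseudocount, scaling, minimum FPKM, value, entry and call rule. Of genes with at least 1 FPKM, 32.9% in the cKO library and 15.9% in the control library had values outside their own interval, and the median half-width over 8770 genes was 4.23% of the midpoint in the cKO library and 7.53% in the control library.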

Additional observations from a re-analysis of the deposited data

How the results depend on the processing

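Gli1 was counted higher in 16 of 16 other settings, with log2 differences from 1.09 to 3.06, and Hhip lower in 15 of 16, the exception being a pseudocount of 5 (-0.79). No minimum, a minimum of 5 FPKM, summed entries, no interval rule and 1.5-fold leave both differences unchanged and could not alter these calls. The set was also chosen on these 2 genes, so the counts of settings support nothing. Shares of all tested genes counted the same way stand in brackets. The 5 Hedgehog genes counted higher became 1 (Gli1) with a pseudocount of 5 (1.99%) and after scaling to the same summed FPKM (1.54%). Gli1 was also the only one after centring on astrocyte (0.473%) or meningeal fibroblast markers (0.304%). The 5 became 2 (Gli1 and Boc) after scaling to the same sum without small RNAs (3.63%) or to the same upper quartile (3.77%). The same 2 were left after centring on all tested (3.10%) or housekeeping genes (3.09%). The 5 became 7 at 1.5-fold, with Gli2 and Gli3 (16.0%), and 6 with a pseudocount of 0.1, with Gli2 (8.17%). From interval midpoints they became 4, without Ptch1 (4.26%). The 1 gene counted lower became 0 with a pseudocount of 5 (2.40%). It became 2 (Hhip and Cdon) after centring on fibroblast markers (64.2%). The median of 1.01 was 0.74 with a pseudocount of 5, 0.69 after scaling to the same sum, 0.32 after centring on astrocyte markers and -0.28 on fibroblast markers. That last centring also reversed Ptch1 (-0.28), Smo (-0.23), Gas1 (-0.23) and Boc (-0.16), by its construction, since it subtracts 1.29. Of the wider pathway genes, 54 were tested on the deposited scale. The 5 higher became 9 with a pseudocount of 0.1 (8.17%) and 3 with a pseudocount of 5 (1.99%). They became 2 after scaling to the same sum (1.54%) and 17 at 1.5-fold (16.0%). On astrocyte (0.473%) or fibroblast markers (0.304%) they became 0. The 2 lower became 5 on astrocyte (16.0%) and 21 on fibroblast markers (64.2%). As parts of the 54, both counts lay below the shares of all tested genes. Small RNA symbols held 25.3% of the FPKM in the cKO library and 11.5% in the control library, and so enter the summed FPKM to different degrees. Of all tested genes, 669 were higher and 638 lower on the deposited scale, against 215 and 963 after scaling to the same sum, 439 and 761 after centring on all tested genes, 67 and 2271 on astrocyte markers, and 43 and 9084 on fibroblast markers. These changes follow from the arithmetic of each setting, and the marker centrings subtract their median by construction. Which scaling suits the 2 libraries best was not tested. No paired analysis was possible because each group has 1 library.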
